A study of Mus musculus with 4 samples.

Results

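Parathyroid hormone-related protein (PTHrP, gene Pthlh), its receptor and core genes of the Hedgehog pathway were examined in mouse mammary basal cells. The 9 genes, of 17630 measured, were Pthlh, Pth1r, Ihh, Ptch1, Smo, Gli1, Gli2, Gli3 and Hhip. They were chosen by pathway and by measured values, namely their levels in these same 4 libraries, so everything given for them is a description. PTHrP is secreted by epithelial cells and binds the G protein-coupled receptor encoded by Pth1r, which raises cAMP. In the embryonic mammary bud it signals from the epithelium to the mesenchyme. Hedgehog ligands bind Patched1 (Ptch1), which otherwise holds back Smoothened (Smo), and released Smoothened signals through the primary cilium to the Gli transcription factors. Gli activity has to be kept low for the mammary bud to form, with Gli3 acting as a repressor there, and in cartilage Indian hedgehog and PTHrP control one another.

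The study asked how sympathetic nerves act on mammary development and stem cells, and RNA was sequenced from 4 samples of WT mouse basal cells, the outer layer of the mammary epithelium, with 1 library each. One sorted library came from mice with no treatment and the other from mice given 6-hydroxydopamine (6-OHDA), a neurotoxin that injures sympathetic nerve endings. The 2 remaining libraries came from colonies that basal cells formed in Matrigel, one with no treatment and one with salbutamol, a β2 adrenergic agonist, plus phenylephrine, an α1 adrenergic agonist (together SP). The SP library has the number 200 in its title, with no unit, and the colony control has 0. That the latter is a colony library was read from this pair of titles and the description of the experiment. Strain, age, 6-OHDA dose and whether animals were pooled are not labelled for these libraries. In the study's methods, basal cells were sorted on CD24 and CD29, with antibodies to CD31, CD45 and TER119 for endothelial and blood lineages, mice were analysed soon after the last injection, and colonies grew for about a week with epidermal growth factor and insulin–transferrin–selenium.

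Values are FPKM, fragments counted per kilobase of transcript and scaled to the depth of the library, so levels can be compared between genes per length. The libraries summed to 508071 (sorted control), 517504 (6-OHDA), 577631 (control colonies) and 588202 (SP colonies), and had 16261, 16371, 15934 and 15756 genes above 0. Steps between low values gave a rough depth of 15.45 to 18.8 fragments for 1 FPKM on 1 kilobase, from 326 to 390 genes per library and with a fit score of 0.34 to 0.49, where 1 is perfect. Differences are between log2(FPKM + 1) of 2 libraries, a scale that understates changes of low genes. A gene was compared when its mean FPKM over the 2 libraries was at least 1, and it was called higher or lower when the difference passed 0.3, so "rose" and "fell" mean past that size. With 1 library per condition there is no spread between replicates, so no test was made and no difference has an error.

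Markers of the labelled cell type, basal cells, were present in all 4 libraries. The 16 basal genes summed to 10520 FPKM in the sorted control, 9488 with 6-OHDA, 6880 in untreated colonies and 14950 with SP, and none was at 0. The basal keratin Krt14 was their most abundant gene in each library, at 3595, 2633, 3298 and 6920 FPKM. Between the controls, 9 of the 16 were lower in colonies and 2 higher, or 14 and 2 under median ratio scaling. The largest falls were in the contractile genes Myh11, at 11.2 against 467 FPKM in the sorted control, Mylk at 3.33 against 116, Cnn1 at 30.4 against 515 and Acta2 at 402 against 1949. The basal keratin Krt5 (1888 against 1002) and the integrin gene Itgb4 (112.55 against 47.3) were higher in colonies. Trp63, a transcription factor of basal cells, stood at 46.51 against 42.79 and Dkk3 at 46.64 against 43.82, differences that did not pass 0.3.

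Other cell types were also detected. Luminal genes summed to 1464, 1404, 2552 and 2355 FPKM, led by Krt8 at 559.9, 544.6, 697.7 and 683.2. Endothelial genes summed to 794.5 and 957.8 FPKM in the sorted control and 6-OHDA libraries, led by Fabp4 at 210.21 and 374.29. In the control and SP colonies they summed to 58.28 and 19.42, with Fabp4 at 34.39 and 1.05 and Cdh5 at 0.12 in each. The difference within each pair of sums rests mainly on Fabp4. Pecam1, which encodes CD31, was at 106.62 and 93.03 FPKM in the sorted libraries, although a gate against CD31 would remove such cells, and at 1.39 and 1.56 in the colonies. The 6-OHDA library stood apart from the other libraries by 16410 FPKM of salivary gland secretory transcripts, 3.171% of its sum, led by Bpifa2 at 7277. The same genes summed to 12.78 FPKM in the sorted control, 80.14 in untreated colonies and 71.19 with SP, with 11 of 19 at 0 in each. The colony sums rest mainly on Aqp5, at 51.28 in untreated colonies and 39.96 with SP. In bulk RNA, fewer cells of a type and less RNA per cell cannot be told apart.

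**Figure D1:**
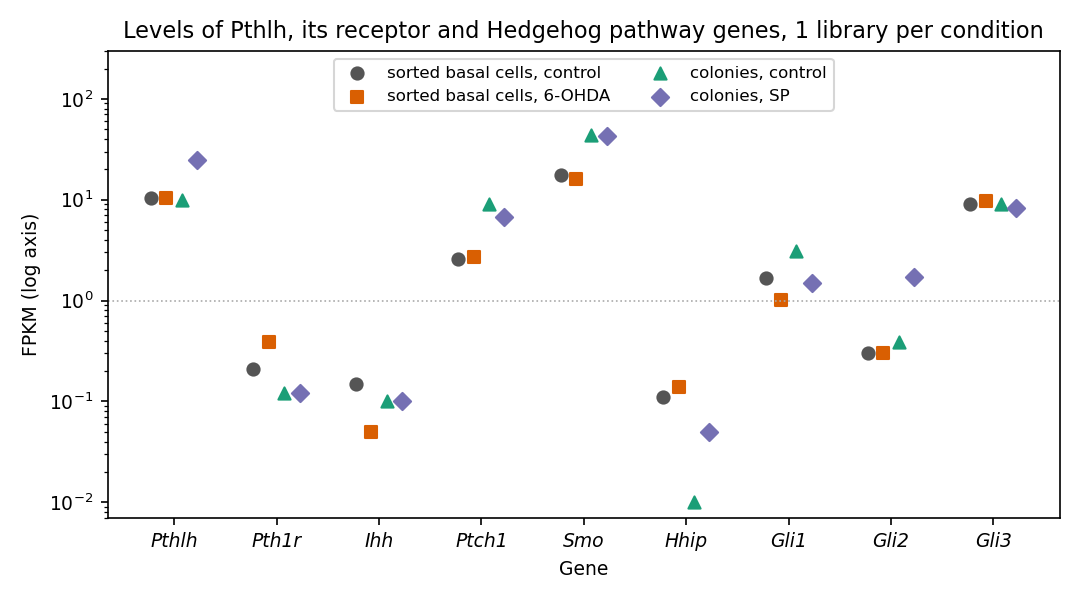
FPKM of the 9 genes on a log axis, with 1 point for each library and a dotted line at 1 FPKM. Smo is the highest in each library, Pth1r, Ihh and Hhip lie below 0.4 in each, and the SP colonies lie above the other libraries for Pthlh (24.88) and Gli2 (1.72).

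Per length, the order of levels in the sorted control was Smo (17.58 FPKM), Pthlh (10.31), Gli3 (9.09), Ptch1 (2.61), Gli1 (1.66), Gli2 (0.3), Pth1r (0.21), Ihh (0.15) and Hhip (0.11). In the 6-OHDA library the order was the same down to Gli1, followed by Pth1r, Gli2, Hhip and Ihh. In the control colonies Ptch1 (9.11) and Gli3 (9.09) were level, and in the SP colonies Gli2 (1.72) stood above Gli1 (1.5). Without replicates, neighbours in these orders could not be separated by their spread. Smo was exceeded by 23.7% of genes in the sorted control and by 11.9% in the control colonies, and Pthlh by 33.1% and 40.7%.

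Within sorted cells, 5 of the 9 genes passed the filter and 1 of them, Gli1, was called lower with 6-OHDA. Within colonies, 6 passed, of which Pthlh and Gli2 were higher and Ptch1 and Gli1 lower with SP. Between the controls, 5 passed, and Ptch1, Smo and Gli1 were higher in colonies. Over all genes compared, 15.8% were higher and 8.35% lower with 6-OHDA, 11.7% higher and 19.8% lower with SP, and 55.7% higher and 26.6% lower in control colonies than in sorted control cells. Nothing is read from the members' counts against these shares, because the members were chosen on the same contrasts. Each control library serves in 2 of the 3 comparisons.

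The shares depend on scaling. Of the genes called, 65.4% were higher with 6-OHDA, 37.1% with SP and 67.7% in control colonies, and with equal sums these were 58.9%, 32.9% and 61.8%. Quantile normalization gave 47.5%, 47% and 55.1%. Median ratio scaling centres the differences near 0, so its 50.5%, 49.9% and 50.2% are set by construction. Under it, 11.7% of all genes compared were higher and 11.5% lower with 6-OHDA. With SP 14.8% were higher and 14.8% lower, and in control colonies 40% and 39.6%. Under quantile normalization, the higher and lower shares were 10.6% and 11.7%, 13.8% and 15.5%, and 43.6% and 35.6%, in the same order. Between the controls, the median difference of all genes was 0.45, and it moved by −0.45 under median ratio scaling, by −0.33 under quantile normalization and by −0.17 with equal sums. Differences between the controls are therefore also given relative to that median.

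Pthlh (NCBI Gene 19227, GRCm38.p6 chr6:147252109-147264013), the PTHrP ligand, stood at 10.31 FPKM in the sorted control, 10.28 with 6-OHDA, 9.98 in control colonies and 24.88 in SP colonies. The first 3 libraries were close together and the SP colonies stood above them. With SP the gene rose by 1.24 on the log2 scale, an FPKM ratio of 2.49, and 159 genes, 1.3% of those compared, rose more. At the rough depth this is about 240 against 609 fragments. The rise ranged from 0.996 to 1.309 over the alternative settings. With 6-OHDA the difference was −0.004. Between the controls it was −0.04, or −0.5 relative to the median of all genes, and the gene was called lower in colonies under median ratio scaling (−0.505) and quantile normalization (−0.514).

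Pth1r (NCBI Gene 19228, chr9:110722085-110747145), the receptor for PTHrP and parathyroid hormone, stood at 0.21 FPKM in the sorted control, 0.39 with 6-OHDA and 0.12 in each colony library. All 4 values are low, and at the rough depth they correspond to about 8, 13, 4 and 4 fragments. The gene was below the filter and was not compared. Its exons share 95 bases with Myl3 on the opposite strand. Pth2r, the receptor for a related peptide, was at 0.01 and 0.03 FPKM in the sorted control and 6-OHDA libraries.

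The wider PTHrP signaling list held 23 measured genes, among them G proteins, adenylyl cyclases, protein kinase A subunits and the proteases that process the precursor. Of 21 compared, 1 was higher and 1 lower with 6-OHDA (4.76% each, against 15.8% and 8.35% of all genes, median 0.01 against 0.06). Plcb1 rose from 3.3 to 5.5 FPKM and Slc9a3r1 fell from 23.13 to 18.32. Under median ratio scaling 1 was higher and 3 lower, with 11.7% and 11.5% of all genes. With SP, 2 of 20 were higher and 2 lower (10% each, against 11.7% and 19.8% of all genes, median −0.01 against −0.07). Over the scalings 1 to 3 were higher. The proprotein convertase gene Pcsk5 rose from 8.25 to 11.84 FPKM, and the β-arrestin gene Arrb2 fell from 8.71 to 6.29. Gnas, which encodes the G protein subunit that stimulates adenylyl cyclase, had 391.65 FPKM in the sorted control, 364.38 with 6-OHDA, 299.57 in control colonies and 285.62 in SP colonies.

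Between the controls, 9 of 21 PTHrP signaling genes were higher in colonies and 9 lower (42.9% each, against 55.7% and 26.6% of all genes, median 0.001 against 0.45), and 4 were higher and 12 lower under median ratio scaling. The 3 largest differences were falls in Ramp2, a receptor-associated membrane protein (20.42 to 0.37 FPKM), the cAMP-responsive factor Crem (61.68 to 5.32) and the β-arrestin gene Arrb1 (23.15 to 3.11). Endothelial genes moved with them, 18 of 18 compared being lower in colonies, and their part in the falls was not tested.

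Genes linked to PTHrP action in the mammary mesenchyme, which need not all respond to PTHrP, are listed separately. The libraries are of epithelial basal cells, with Pth1r at 0.12 to 0.39 FPKM, so no difference here is read as a response to PTHrP. With 6-OHDA, 3 of 9 compared were lower and none higher (33.3% lower, against 8.35% of all genes, median −0.1 against 0.06): the matrix gene Tnc from 129.37 to 90.48 FPKM, the matrix protease gene Mmp2 from 94.26 to 68.19, and Bmp4 from 3.41 to 2.56. Equal sums without the salivary genes left 2 lower, and median ratio scaling and quantile normalization each gave 4. With SP, 2 of 8 were higher and 3 lower (25% and 37.5%, against 11.7% and 19.8% of all genes, median −0.22 against −0.07), with 1 higher under quantile normalization, and the homeobox gene Msx2 rose from 1.07 to 2.74 FPKM. Between the controls, 4 of 9 were higher in colonies and 5 lower (44.4% and 55.6%, against 55.7% and 26.6% of all genes, median −0.62 against 0.45), or 2 and 5 under median ratio scaling, Tnc rising from 129.37 to 400.8 FPKM and Mmp2 falling from 94.26 to 32.17, with Bmp4 listed at 0 in the control colonies. Fibroblast markers moved in the same comparisons, 12 of 18 being higher with 6-OHDA, 9 of 14 lower with SP and 10 of 16 lower in control colonies than in the sorted control, and their part in this list was not tested.

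The Hedgehog ligands were low in the libraries measured. Ihh (NCBI Gene 16147, chr1:74945315-74951672), Indian hedgehog, stood at 0.15, 0.05, 0.1 and 0.1 FPKM in the sorted control, 6-OHDA, control colony and SP colony libraries, about 6, 2, 4 and 4 fragments. Sonic hedgehog, Shh, stood at 0.03, 0.1, 0.06 and 0 FPKM in the same order, and desert hedgehog, Dhh, at 0.45, 1.03, 0.25 and 0.54. Ihh was below the filter in each comparison.

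The list of Hedgehog ligands and genes for making and releasing them also held the glypican Gpc3, which is not known for either. Few genes of the list were compared. With 6-OHDA, 1 of 4 compared was higher, the glypican Gpc3 (9.97 to 14.5 FPKM), and 1 lower, Disp1, a releaser of lipid-modified ligand (2.42 to 1.52). That is 25% each, against 15.8% higher and 8.35% lower of all genes. With SP, 2 of 3 were lower and none higher (66.7% lower, against 19.8% of all genes). They were Hhat, the ligand palmitoyltransferase, from 6.14 to 4.08 FPKM and the secreted release factor Scube3 from 18.8 to 11.94. Between the controls, Hhat (2.06 to 6.14) and Disp1 (2.42 to 5) were higher in colonies, and Gpc3 was lower (9.97 to 0.55). Of the 4 compared, that is 50% and 25%, against 55.7% and 26.6% of all genes. With 3 or 4 genes compared, nothing is read from these shares.

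Ptch1 (NCBI Gene 19206, chr13:63508328-63573460), the Hedgehog receptor and itself a gene that Gli factors activate, stood at 2.61 FPKM in the sorted control, 2.69 with 6-OHDA, 9.11 in control colonies and 6.67 in SP colonies. Both colony libraries lay above both sorted libraries. Between the controls Ptch1 rose by 1.49 on the log2 scale, an FPKM ratio of 3.49 and 1.03 relative to the median of all genes, and 16.2% of genes rose more. The rise ranged from 0.891 with a pseudocount of 5 to 1.765 with a pseudocount of 0.1. With SP it fell by 0.398 on the log2 scale, an FPKM ratio of 0.732, and 12.6% of genes fell more. This call was lost with a pseudocount of 5 (−0.27). With 6-OHDA the difference was 0.03.

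Of the other reception genes, 8 were compared. With 6-OHDA, 2 were higher, the coreceptor Cdon (2.5 to 3.61 FPKM) and Mosmo, which lowers Smoothened at the membrane, and none was lower (25% higher, against 15.8% of all genes, median 0.1 against 0.06). Mosmo lost its call with equal sums (0.28) and median ratio scaling (0.25), and under quantile normalization none of the 8 was higher. With SP, none was higher and 4 were lower (50% lower, against 19.8% of all genes, median −0.31 against −0.07), or 3 under median ratio scaling and quantile normalization. Among them were the coreceptors Boc, from 44.48 to 24.25 FPKM, and Gas1, from 65.46 to 48.64, and the ubiquitin ligase Mgrn1, from 17.61 to 11.71. Fibroblast markers were lower in the same comparison, 9 of 14, with a median of −0.52, and their part in the reception genes was not tested. Between the controls, 4 were higher in colonies and 2 lower (50% higher, against 55.7% of all genes, median 0.26 against 0.45), a direction that turned under median ratio scaling, with 2 higher and 4 lower, and under quantile normalization, with 2 higher and 3 lower. Gas1 (22.34 to 65.46 FPKM) and Cdon (2.5 to 8.52) had the largest rises.

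Smo (NCBI Gene 319757, chr6:29735497-29761366), the signal transducer, stood at 17.58 FPKM in the sorted control, 15.97 with 6-OHDA, 43.35 in control colonies and 42.47 in SP colonies. The colonies were high and the sorted libraries lower. Between the controls Smo rose by 1.25 on the log2 scale, an FPKM ratio of 2.47 and 0.8 relative to the median of all genes. The rise stood at 0.77 to 1.3 over the alternatives, and 22.2% of genes rose more. The differences with 6-OHDA (−0.13) and SP (−0.03) did not pass 0.3.

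Gli1 (NCBI Gene 14632, chr10:127329882-127341579), an activating Gli factor whose own transcription is a common readout of Hedgehog signaling, stood at 1.66 FPKM in the sorted control, 1.01 with 6-OHDA, 3.11 in control colonies and 1.5 in SP colonies. Each treated library was below its own control. With 6-OHDA the gene fell by 0.404 on the log2 scale, an FPKM ratio of 0.608, and 560 genes, 4.8%, fell more. With SP it fell by 0.72, an FPKM ratio of 0.482, and 396 genes, 3.3%, fell more. These are low levels, about 110 against 64 fragments and 210 against 103. With a pseudocount of 5 the 6-OHDA difference was −0.15 and not called, and the SP difference was −0.32 and called. Between the controls Gli1 was higher in colonies by 0.63 but by 0.18 relative to the median of all genes, and it was not called with a pseudocount of 5 (0.28), median ratio scaling (0.28) or quantile normalization (0.24). In GENCODE vM21, exons of Gli1 share 265 bases with the antisense gene Gm47200 and 62 with Arhgap9. Whether the libraries kept strand is not given in the sources used here, so fragments from such shared bases cannot be assigned to one gene.

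Gli2 (NCBI Gene 14633, chr1:118834061-119054405), the main activating Gli factor in many tissues, stood at 0.3 FPKM in each sorted library, 0.39 in control colonies and 1.72 in SP colonies. The SP colonies were the only one of the 4 libraries above 1 FPKM. With SP the gene rose by 0.97 on the log2 scale, an FPKM ratio of 4.41, about 44 against 199 fragments, and 2.1% of genes rose more. Its mean of 1.055 FPKM lay just above the filter of 1, which it passed only through the SP library, so among compared genes it had to differ. The difference ranged from 0.32 with a pseudocount of 5 to 1.89 with a pseudocount of 0.1. It was below the filter in the other comparisons.

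Gli3 (NCBI Gene 14634, chr13:15463723-15730026), which acts mainly as a repressor when no ligand is present, stood at 9.09 FPKM in the sorted control, 9.62 with 6-OHDA, 9.09 in control colonies and 8.29 in SP colonies. Its 4 levels were close together. No difference passed 0.3: 0.07 with 6-OHDA, −0.12 with SP and 0 between the controls. Relative to the median of all genes, the last was −0.45, and Gli3 was called lower in colonies under median ratio scaling (−0.46) and quantile normalization (−0.49). Its exons share 188 bases with Gm6556 on the opposite strand.

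Hhip (NCBI Gene 15245, chr8:79965850-80058060), which binds and sequesters Hedgehog ligands and is activated by Gli factors, stood at 0.11 FPKM in the sorted control, 0.14 with 6-OHDA, 0.01 in control colonies and 0.05 in SP colonies. It was near 0 in each library, about 17, 21, 2 and 8 fragments, and below the filter in each comparison. Its exons share 175 bases with Gm27820 on the opposite strand.

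**Figure D2:**
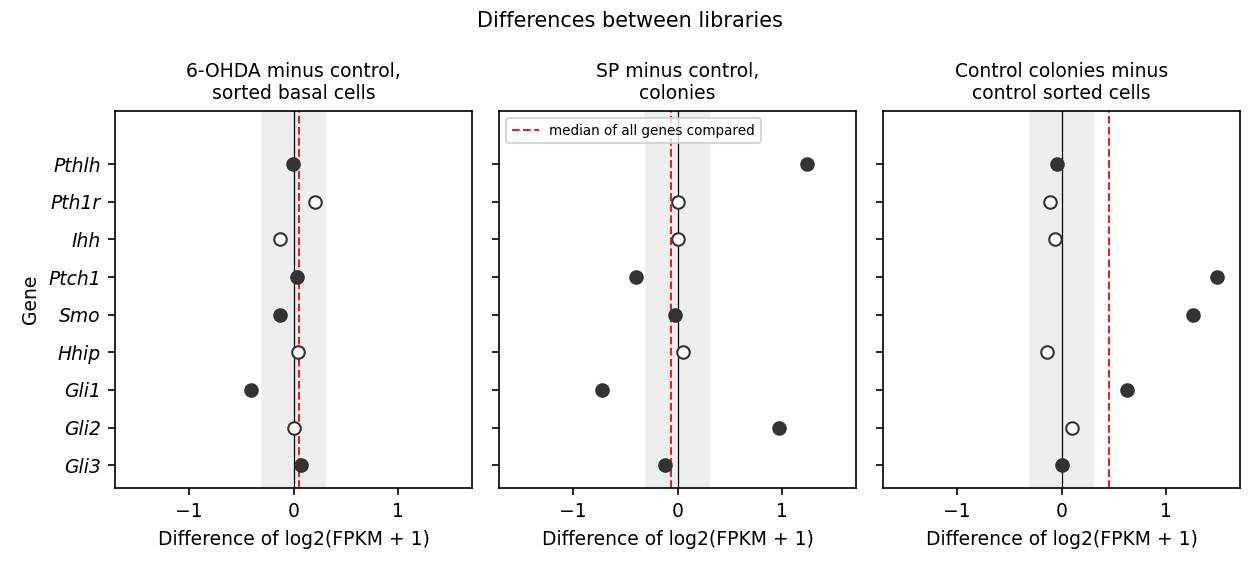
Difference of log2(FPKM + 1) for each gene in the 3 comparisons, with 1 point per gene. Filled points passed the filter, open points did not, the grey band spans −0.3 to 0.3 and the red dashed line is the median of all genes compared. With SP, Pthlh (1.24) and Gli2 (0.97) lie to the right and Gli1 (−0.72) and Ptch1 (−0.4) to the left, and between the controls Ptch1 (1.49) and Smo (1.25) lie to the right.

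Between the receptor and the Gli factors, 21 transduction genes were measured. With 6-OHDA, 4 of 19 compared were higher and none lower (21.1% higher, against 15.8% of all genes, median 0.08 against 0.06), among them the kinase Gsk3b, from 11.26 to 14.68 FPKM. Median ratio scaling and quantile normalization each left 2 higher. With SP, 1 of 21 was higher and 5 lower (23.8% lower, against 19.8% of all genes, median −0.17 against −0.07), including the ciliary kinesin Kif7, which controls Gli processing, from 3.68 to 2.28, and 3 were lower under median ratio scaling and 2 under quantile normalization. Between the controls, 13 of 21 were higher in colonies and 3 lower (61.9% and 14.3%, against 55.7% and 26.6% of all genes, median 0.54 against 0.45), or 9 and 7 under median ratio scaling. Efcab7, part of the complex that anchors Evc proteins at the ciliary base, rose from 0.56 to 8.38 FPKM. Sufu, the Gli-binding inhibitor, stood at 10.76, 10.56, 14.53 and 12.06 FPKM.

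The primary cilium is the organelle through which vertebrate Hedgehog signals pass, and 32 genes of its transport and transition zone were listed. With SP, 20 of 32 were lower and none higher (62.5% lower, against 19.8% of all genes), with a median of −0.33. The intraflagellar transport genes Ift81, from 16.26 to 9.78 FPKM, and Ift27, from 18.33 to 11.42, fell most, with the Bardet-Biedl gene Bbs2, from 6.08 to 3.57. Under median ratio scaling 14 of 32 were lower and none higher, with 14.8% of all genes lower. In the same comparison 9 of 14 fibroblast markers were lower and 11 of 16 basal markers higher, and their part in the cilium genes was not tested. With 6-OHDA, 7 of 30 were higher and none lower (23.3% higher, against 15.8% of all genes, median 0.12 against 0.06), Ift52 from 3.61 to 5.7 FPKM, Ift88 from 2.18 to 3.61 and Kifap3 from 3.66 to 5.83. Here median ratio scaling gave 5 of 30 higher and 2 lower, with 11.7% of all genes higher. Fibroblast markers were higher in the same library, 12 of 18, and their part in these cilium genes was not tested.

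Between the controls, 30 of 32 cilium genes were higher in colonies and 2 lower (93.8% higher, against 55.7% of all genes), with a median of 0.97 against 0.45. The largest rises were in Ift46 (5.1 to 30.3 FPKM), Ift52 (3.61 to 20.89) and Wdr35 (3.55 to 17.91). The 2 that were lower, named after their values were seen, were Arl13b (46.4 to 13.17) and Ift172 (12.7 to 8.59). Under median ratio scaling 23 were higher and 2 lower, with 40% of all genes higher and 39.6% lower. Luminal markers were higher in colonies (13 of 19), and endothelial (18 of 18) and basal (9 of 16) markers lower, and their part in the cilium genes was not tested.

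Of genes known to respond to Hedgehog signaling, 21 were measured. With 6-OHDA, 4 of 15 compared were higher and 1 lower (26.7% and 6.67%, against 15.8% and 8.35% of all genes, median 0.13 against 0.06), the proteoglycan Vcan from 9.35 to 19.59 FPKM and the growth factor Igf2 from 5.54 to 9.77. With equal sums and with median ratio scaling 2 of 15 were higher and 1 lower, while 13.7% and 11.7% of all genes were higher, and under quantile normalization 2 and 2. Equal sums without the salivary genes gave 4 higher and none lower. Fibroblast genes were higher in the same library, 12 of 18, and their part in the rise of Vcan and Igf2 was not tested. With SP, 1 of 12 was higher and 5 lower (8.33% and 41.7%, against 11.7% and 19.8% of all genes, median −0.23 against −0.07), with Hsd11b1 falling from 5.67 to 1.68 FPKM, the secreted Wnt modulator Sfrp1 from 74.64 to 48.48 and the neuropilin gene Nrp2 from 20.01 to 12.58. Ccnd2, which encodes cyclin D2, was the gene that rose, from 51.84 to 77.3 FPKM. In that comparison 9 of 14 fibroblast markers were lower and 11 of 16 basal markers higher, and their part in these genes was not tested. Between the controls, 8 of 15 were higher in colonies and 6 lower (53.3% and 40%, against 55.7% and 26.6% of all genes, median 0.39 against 0.45), a balance that turned to 6 and 7 under median ratio scaling. Sfrp1 rose from 15.07 to 74.64 FPKM and Cdk6 from 1.27 to 8.31, and Igf2 fell from 5.54 to 0.24.

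**Figure D3:**
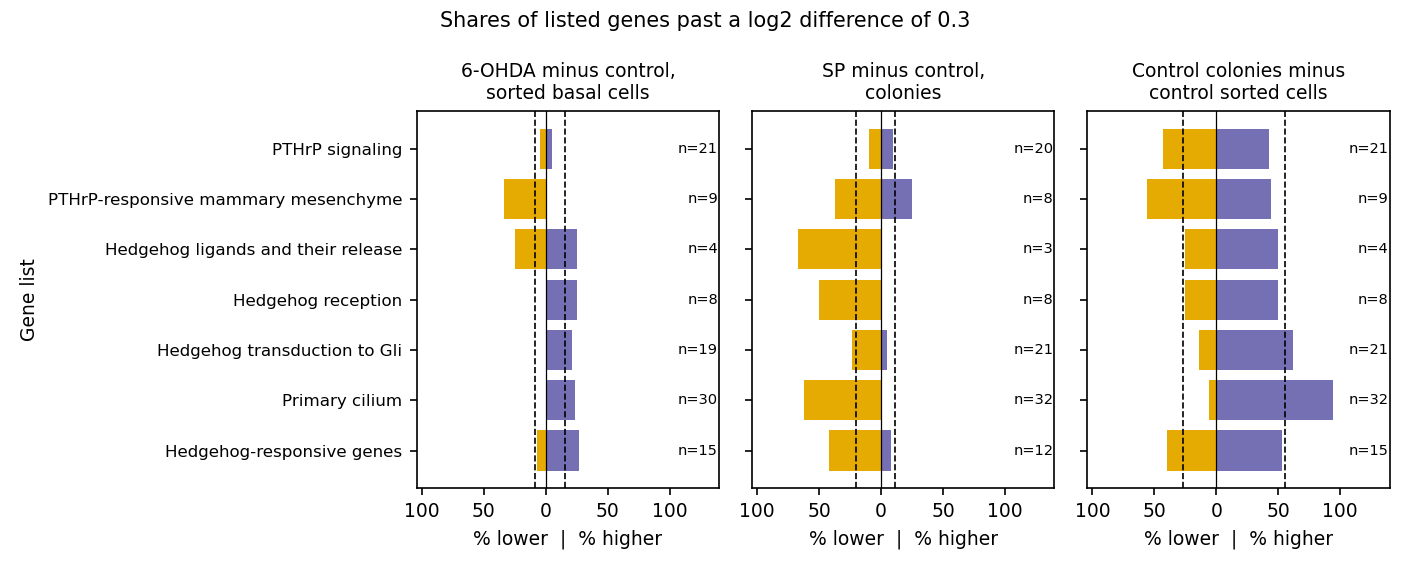
Percent of the genes compared in each pathway list that were higher (right) or lower (left) by more than 0.3, with the number compared as n and dashed lines at the percent of all genes. The cilium list reaches 62.5% lower with SP and 93.8% higher in control colonies.

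Cell type markers moved in the same comparisons. With SP, 11 of 16 basal genes were higher and 1 lower (median 0.74), and 9 of 14 fibroblast genes were lower and 2 higher (median −0.52). The fibroblast list summed to 3089 FPKM in control colonies and 1616 in SP colonies, led by Postn at 2376 and 1004, with Dpt and Pi16 at 0 with SP. Of 19 luminal genes 3 were higher and 8 lower. The part of these markers in the rise of Pthlh and Gli2, the fall of Ptch1 and Gli1 and the counts of the pathway lists was not tested.

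With 6-OHDA, 12 of 18 fibroblast genes were higher and none lower (median 0.46), their sum going from 1402 to 1798 FPKM, and 6 of 19 endothelial genes were higher and none lower. Of 18 luminal genes, 5 were lower and 3 higher (27.8% and 16.7%, against 8.35% and 15.8% of all genes). Of 7 leukocyte genes, 2 were lower and none higher (28.6% lower, against 8.35% of all genes). Of 16 basal genes, 2 were lower, 1 higher and 13 within 0.3 (12.5% lower and 6.25% higher, against 8.35% and 15.8% of all genes). Their median was 0.076, against 0.055 for all genes. Krt14 fell from 3595 to 2633 FPKM and Krt17 from 2266 to 1643, and Acta2 rose from 1949 to 2575. Salivary transcripts were also present in that library alone among the 4 at such a level. Leaving them out and rescaling gave differences between −0.11 and 0.09 for Pthlh, Ptch1, Smo and Gli3, and −0.39 for Gli1, whose call did not change. Schwann and nerve genes summed to 90.04 and 105.5 FPKM in the sorted control and 6-OHDA libraries, led by Sox10, and to 25.19 and 18.45 in the colonies. The part of these markers in the Gli1 difference and in the counts of the pathway lists was not tested.

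Between the controls, 9 of 16 basal genes were lower in colonies and 2 higher, 13 of 19 luminal genes were higher and 3 lower, and 10 of 16 fibroblast genes were lower and 4 higher. The fibroblast sum went the other way, from 1402 to 3089 FPKM, with its most abundant gene Postn going from 702.2 to 2376. By number of genes, more were called in the stated direction than in the other under each scaling run. Leukocyte genes summed to 48.49, 37.31, 88.02 and 185.2 FPKM over the libraries. The colony sums rest on S100a8 (30.9 and 124.5) and Cd14 (53.13 and 49), with 12 and 8 of the 19 genes at 0, Ptprc among them. Adipocyte genes summed to 11.68, 14.19, 8.53 and 3.11, sums that rest largely on Lipe and Pparg. From sorted control to control colonies Lipe went from 6.75 to 3.54 FPKM and Pparg from 3.35 to 1.09. Below the filter, Adipoq went the other way, from 0.18 to 1.66, and Plin1 from 0.11 to 1.23, while Lep went from 0.71 to 0.07. In the SP colonies Adipoq stood at 0.06 and Plin1 at 0. Colonies differ from sorted cells by culture and by preparation, which cannot be told apart here, and whether both came from the same animals is not labelled. The part of the markers in the differences of Ptch1, Smo and Gli1 and in the counts of the pathway lists was not tested.

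Genes with the nearest profile over the 4 libraries were found by the distance between centred log2(FPKM + 1) values among 12282 genes with a mean of at least 1 FPKM. Nearest to Pthlh were Kif26a (distance 0.08), the glycolytic enzyme genes Aldoa (0.12) and Pgam1 (0.13), the sterol synthesis gene Cyp51 (0.17) and Phyhip (0.2). Aldoa stood at 394 FPKM in the sorted control, 376 with 6-OHDA, 342 in control colonies and 873 in SP colonies. Nearest to Ptch1 were Pcdhgc5 and Notch3 (0.03 each), B3gat3, Mfsd13a and Pnpla6. Nearest to Smo were Cbx2 (0.03), 1700088E04Rik, Aspscr1, Rbm45 and Chst5, and nearest to Gli3 were Drap1 (0.01), Smap1, Zfp157, Crls1 and Sptbn1. Gli1 was nearest to Abcg1 (0.04), Plscr2 (0.08), Ddx58 (0.14), Btbd11 and Rhpn2. These are profiles of 4 values each and describe these libraries alone.

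Promoter sequence was read for 8 of the 9 genes, in 10 windows of 250 bases before a transcription start given by RefSeq (GRCm38.p6), with Gli1 named only. Genes can have other starts: in GENCODE vM21 the windows of Ptch1 and Gli3 and 2 of the 3 of Pth1r lie inside longer transcripts of the same gene. The motifs searched, on both strands, were the Gli site GACCACCCA, the cAMP response element TGACGTCA and the GC box GGGCGG, none of which contains another. The Gli site was in none of the windows and in 0.225% of all 32851 promoters. The cAMP response element was in that of Hhip and in 1.55% of all promoters. The GC box, in 32.7% of all promoters, was found 4 times in the window of Pthlh, 2 times each in those of Ihh, Gli3 and Hhip, and 1 time each in those of Ptch1 and Gli2, with none in that of Smo. The 3 windows of Pth1r held 0, 1 and 4. A match is a description, and no match says only that these letters are not in this window. The windows held 56% (Pth1r) to 78.4% (Ptch1) G and C, with 75.2% for Pthlh and 67.2% for Gli2, against a median of 52.4% over all promoters. Pthlh and Gli2 rose with SP, and their sequence follows on the minus strand, 5′ to 3′, with GC boxes in capitals. For Pthlh only the 80 bases at chr6:147264184-147264263 are shown, since GENCODE vM21 places the other 170 in the first exon. Of the 4 GC boxes of Pthlh, 1 lies in these 80 bases and the other 3 do not. The Gli2 window, chr1:119053620-119053869, lies before every Gli2 transcript of GENCODE vM21 but inside the longer gene span of RefSeq.
Pthlh: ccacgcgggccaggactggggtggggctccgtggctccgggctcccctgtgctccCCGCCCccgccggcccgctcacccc
Gli2: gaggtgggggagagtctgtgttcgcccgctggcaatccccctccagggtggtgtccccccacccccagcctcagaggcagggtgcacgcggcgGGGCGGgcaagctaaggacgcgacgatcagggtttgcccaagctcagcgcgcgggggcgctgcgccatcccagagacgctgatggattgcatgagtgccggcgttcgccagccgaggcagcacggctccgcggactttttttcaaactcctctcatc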

How the data were processed

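RNA-seq of 4 libraries was analysed, 1 per condition. The authors deposited FPKM values with 2 decimals for 17630 genes in each library. The submitters' processing notes name mm10, Bowtie2, RSEM 1.3.1 and DESeq2 1.4.5, with no role or order, and the annotation is not given in the sources used here. FPKM values are relative to all fragments, so abundant transcripts in 1 library lower its other genes. Gene numbers were matched to NCBI Gene identifiers in RefSeq (GRCm38.p6), 17512 of them with a name.

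From these values, log2(FPKM + 1) was compared between 2 libraries where the mean FPKM of both reached 1. Calls are past 0.3, the fold part of the volcano plot threshold in the study. Its adjusted P part has no counterpart here. FPKM are not counts, so no count model was run. Depth was estimated from FPKM steps of single-transcript genes (GENCODE vM21), for assumed fragment lengths of 150 to 300 bases. Fragments per gene use 250 bases and the longest coding transcript, are rough, and carry no interval.

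Named genes were all 9 members, the 3 listed genes with the largest difference per pathway list and comparison, of which not all are given, listed ligands and receptors, the most abundant gene of each marker list, and the 5 nearest profiles of Pthlh and other members whose mean reached 1 FPKM. Gnas, Sufu, Ccnd2, Pth2r and some other cell type markers were named beyond this rule. Members and lists were chosen with earlier results of these data known. Alternatives were pseudocounts of 0.1 and 5, no filter, a mean FPKM of at least 5, equal sums, median ratio scaling, quantile normalization, equal sums without salivary genes, and a threshold of 1. Calculations were tested on simulated data. Python 3.11.15, numpy 2.4.6, pandas 2.3.3 and matplotlib 3.10.9 were used.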

Additional observations from a re-analysis of the deposited data

Results flagged for a closer look

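Of the members, the pathway genes named by their largest differences, the most abundant gene of each marker list in any library, and the genes of nearest profile, 7 passed 0.3 in opposite directions with 6-OHDA in sorted cells and with SP in colonies. On the log2 scale Ift88, of intraflagellar transport, differed by 0.536 with 6-OHDA and by −0.439 with SP, and the phospholipase gene Plcb1 by 0.596 and −0.524. Wdr35, also of intraflagellar transport, differed by 0.358 and −0.337, and Mosmo by 0.308 and −0.359. Among the markers, Krt14 differed by −0.449 and 1.069, Fabp4 by 0.829 and −4.11, and Aqp5 by 0.364 and −0.352. With equal sums, median ratio scaling and quantile normalization, Ift88, Plcb1, Krt14 and Fabp4 passed 0.3 in both comparisons. Under median ratio scaling Wdr35 (−0.269), Mosmo (−0.296) and Aqp5 (−0.281) no longer passed it with SP, nor did Mosmo with 6-OHDA (0.253). With a pseudocount of 5, Ift88 (0.262), Aqp5 (0.203), Mosmo (0.217) and Wdr35 (0.201) did not pass it with 6-OHDA, nor did Plcb1 (−0.187), Mosmo (−0.235) and Wdr35 (−0.272) with SP. Under quantile normalization Wdr35 and Mosmo passed it in neither comparison, and Aqp5 (0.274) did not with 6-OHDA. The other listed markers were not counted here, and no share of all genes is given. The pathway genes were picked by their largest differences, so nothing is read from this number. Whether the effects differ was not tested, since each rests on 1 library against 1. Of the 9 members, 5 were compared in both, and none of these 5 did this. Pth1r, Ihh, Gli2 and Hhip were not compared with 6-OHDA.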

How the results depend on the processing

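Under alternatives other than the threshold, 123 values were recomputed for 16 differences of members: 114 kept their side of 0.3, 5 were no longer past it, 4 came to be past it and none turned in direction among those called. The counts of all genes past the threshold moved as follows. With 6-OHDA, 2838 genes became 1343 with a pseudocount of 5, 1705 where the mean FPKM had to reach 5 and 229 at a threshold of 1. With SP, 3736 became 2232 with a pseudocount of 5 and 395 at a threshold of 1. Between the controls, 10069 became 5380 at a threshold of 1. A larger pseudocount shrinks differences of low genes by construction, and a stricter filter or threshold leaves fewer genes to count. A mean FPKM of at least 5 gave no value for Gli1, Gli2 in SP colonies, or Ptch1 in sorted cells. At a threshold of 1, Pthlh with SP and Ptch1 and Smo between the controls were past it. No paired analysis was possible because each condition has 1 library. Depth limits Pth1r, Ihh and Hhip, at about 2 to 21 fragments, most.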
